A study of Mus musculus with 401 samples.

Results

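The genes described here are 10 subunits and protectors of cohesin, the protein ring that holds sister chromatids together. They were chosen by name: the kleisins Rec8 and Rad21, the SMC proteins Smc1a, Smc1b and Smc3, the STAG proteins Stag1 and Stag3, the shugoshins Sgo1 and Sgo2a, and the acetyltransferase Esco2. All 10 were found in both count tables, among 43633 genes in all. The data came from female B6D2F1 (C57BL/6 x DBA/2) mice, from which fully grown follicles were dissected, and the single germinal-vesicle oocyte and the pooled cumulus cells of each follicle were sequenced apart by RamDA-seq, a full-length total RNA method for single cells. In the first set, young (2 months), middle (9 months) and old (14 months) mice fed ad libitum were compared with mice of 9 months under calorie restriction (CR), and all of them had been injected for hyperovulation with eCG or CARD HyperOva. In the second set, mice of 2, 4, 9 and 14 months fed ad libitum with hyperovulation were compared, together with mice of 2 months without hyperovulation.

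Cohesin is a ring of an SMC1 protein, an SMC3 protein and a kleisin, to which a STAG protein binds. In meiotic cells, SMC1B, REC8 and STAG3 take the places that SMC1A, RAD21 and STAG1 or STAG2 hold in dividing body cells, and SMC3 is shared by both forms. In female mammals cohesion is laid down in the fetal ovary, before the oocyte arrests for most of its life, and arm and centromere cohesion are released in turn at the meiotic divisions. Shugoshins with a bound phosphatase protect centromeric cohesin from separase, and ESCO2 acetylates SMC3 so that a loaded ring stays closed. Loss of cohesin from chromosomes is a known feature of oocytes from aged females.

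The first set held 73 oocytes and 71 cumulus pools from 11 mouse labels, and the second 127 oocytes and 128 cumulus pools from 30. Oocytes of the first set came from 2 young labels (16 oocytes), 4 middle (14), 2 old (16) and 3 CR labels (27), and 1 old label joined 2 mice. Oocytes of the second set came from 5 mice of 2 months, 8 of 4 months, 4 of 9 months, 5 of 14 months and 8 without hyperovulation. Total counts per library lay between 510029 and 4536690, with medians of 2209914, 2332126 and 2293313 in young, middle and old oocytes and 3578882 in CR oocytes. The oocyte markers summed to 15475 to 20105 CPM (counts scaled to library size) per mouse in oocytes of the first set and to no more than 48.4 CPM in its cumulus cells. Cumulus markers reached 17.9% of their cumulus level in 1 oocyte of the first set and exceeded 5% in 15 of its 73 oocytes, of which 6 were old, but stayed at or below 2.05% in the second set. A complex of 1 middle mouse was left out, since its oocyte library correlated with other cumulus libraries (r = 0.912) more than with oocytes (r = 0.634).

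Among the kleisins, Rec8 RNA had no whole count in any oocyte, whereas Rad21 RNA was the most abundant of the 10 genes per length. Protein was not measured by these counts. In the paper, Rec8 protein was seen on chromosomes at metaphase I, less in middle than young oocytes and more in CR than middle ones. Rec8 (chr14:55618037-55625395, plus strand, GRCm38), whose protein is the meiotic kleisin cleaved by separase, had no whole count in 73 oocytes of the first set (199887351 counts of all genes) or in 127 oocytes of the second (265304981 counts), where 0.5 count was assigned to it in all. A floor of 3 counts over a set allows up to 0.0150 and 0.0113 CPM, for counting error only. In cumulus cells Rec8 stood at 0.702 CPM in the first set and 1.11 CPM in the second when libraries were pooled, with a count in 29 of 71 and 59 of 128 libraries. Against the floor, Rec8 in the first set was at least 46.8-fold lower in oocytes than in the cumulus cells around them, leaving aside the counting error of its cumulus level (95% exact Poisson interval 0.552 to 0.881 CPM), which was itself close to the limit of detection. In the second set 95% exact Poisson intervals were at most 0.0176 CPM in oocytes and 0.923 to 1.33 CPM in cumulus cells. RNA of Rad21l, the gene of another meiotic kleisin, stood at 1.36 ± 0.551 RPKM (CPM per kilobase of exon; SD, n = 11 mice) and 1.02 ± 0.346 RPKM (n = 30) in oocytes. It had no count in any cumulus mouse sum.

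Rad21 (chr15:51962240-51991747, minus strand), the kleisin of dividing cells, reached 54.9 ± 11.3 RPKM in oocytes of the first set (SD, n = 11 mice) and 47.2 ± 1.89 RPKM in those of the second (n = 30). Per length, Rad21 exceeded the floor of Rec8 in oocytes of the first set by at least 10420-fold. In cumulus cells Rad21 stood at 95.3 ± 7.33 RPKM in the first set and 75.4 ± 9.48 RPKM in the second.

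Both SMC1 forms were detected in oocytes, with the somatic form the higher. Smc1a (chrX:152016428-152062694, plus strand) stood at 6.91 ± 1.70 and 7.67 ± 0.813 RPKM in oocytes of the first and second set, and the meiotic Smc1b (chr15:85064689-85131964, minus strand) at 2.56 ± 0.959 and 2.19 ± 0.392 RPKM. All 73 and 127 oocytes had a count for both. In cumulus cells Smc1a stood at 19.2 ± 2.22 and 15.3 ± 2.03 RPKM, while Smc1b stood at 0.370 ± 0.206 and 0.452 ± 0.276 RPKM. Smc3 (chr19:53600398-53645833, plus strand), the SMC subunit of every ring, was at 20.7 ± 2.93 and 20.2 ± 1.27 RPKM in oocytes and 20.5 ± 1.64 and 16.1 ± 2.95 RPKM in cumulus cells. Whether it differed between the cell types depends on the scaling, as given with the tests below.

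Both STAG members were at low levels in oocytes. Stag1 (chr9:100597798-100959375, plus strand) stood at 3.26 ± 1.30 and 2.31 ± 0.233 RPKM in oocytes of the 2 sets, and the meiotic Stag3 (chr5:138280240-138312393, plus strand) at 1.004 ± 0.307 and 0.981 ± 0.198 RPKM. In cumulus cells Stag1 was at 10.8 ± 1.05 and 9.90 ± 1.76 RPKM and Stag3 at 0.146 ± 0.0935 and 0.169 ± 0.165 RPKM. Stag2, the other somatic STAG gene and no member of the set, was above both in oocytes, at 7.31 ± 0.815 RPKM in the second set.

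The protectors and the acetyltransferase were abundant in oocytes. Sgo1 (chr17:53674786-53689333, minus strand) stood at 15.3 ± 3.19 and 14.6 ± 0.968 RPKM in oocytes against 11.6 ± 2.89 and 7.90 ± 1.62 RPKM in cumulus cells. Sgo2a (chr1:57995971-58025899, plus strand), the shugoshin that guards centromeric cohesin in meiosis, was at 7.81 ± 1.59 and 7.14 ± 0.573 RPKM in oocytes and 6.32 ± 1.198 and 4.16 ± 1.12 RPKM in cumulus cells. Esco2 (chr14:65819038-65833994, minus strand) had the widest gap of these 3, at 48.2 ± 14.5 and 41.6 ± 3.38 RPKM in oocytes and 7.19 ± 2.07 and 5.54 ± 1.44 RPKM in cumulus cells. Counts of Smc3, Sgo2a and Sgo1 were not whole in up to 79.5%, 67.8% and 52.7% of values, since reads with several matches were split, so that the levels of these 3 genes are uncertain.

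Ordered by mean RPKM in oocytes of the second set, the genes ran Rad21, Esco2, Smc3, Sgo1, Smc1a, Sgo2a, Stag1, Smc1b, Stag3 and Rec8. Most steps of this order were wider than the spread over mice, but Smc1a lay above Sgo2a in 24 of 30 mice only, and Stag1 above Smc1b in 17 of 30, so that these neighbours were not separated. Rad21 lay above Esco2 in 29 of 30 mice. In the first set Sgo2a and Smc1a changed places, Sgo2a being the higher in 6 of 11 mice. In cumulus cells of the second set the order was Rad21, Smc3, Smc1a, Stag1, Sgo1, Esco2, Sgo2a, Smc1b, Rec8 and Stag3, in which Smc3 and Smc1a (16 of 30 mice), Smc1b and Rec8 (16 of 30) and Rec8 and Stag3 (20 of 30) were not separated. RPKM divides by a length per gene implied by the deposited counts and RPKM, between 2748 bases for Rec8 and 11781 for Stag1. A transcript that uses fewer exons is understated by it.

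**Figure D1:**
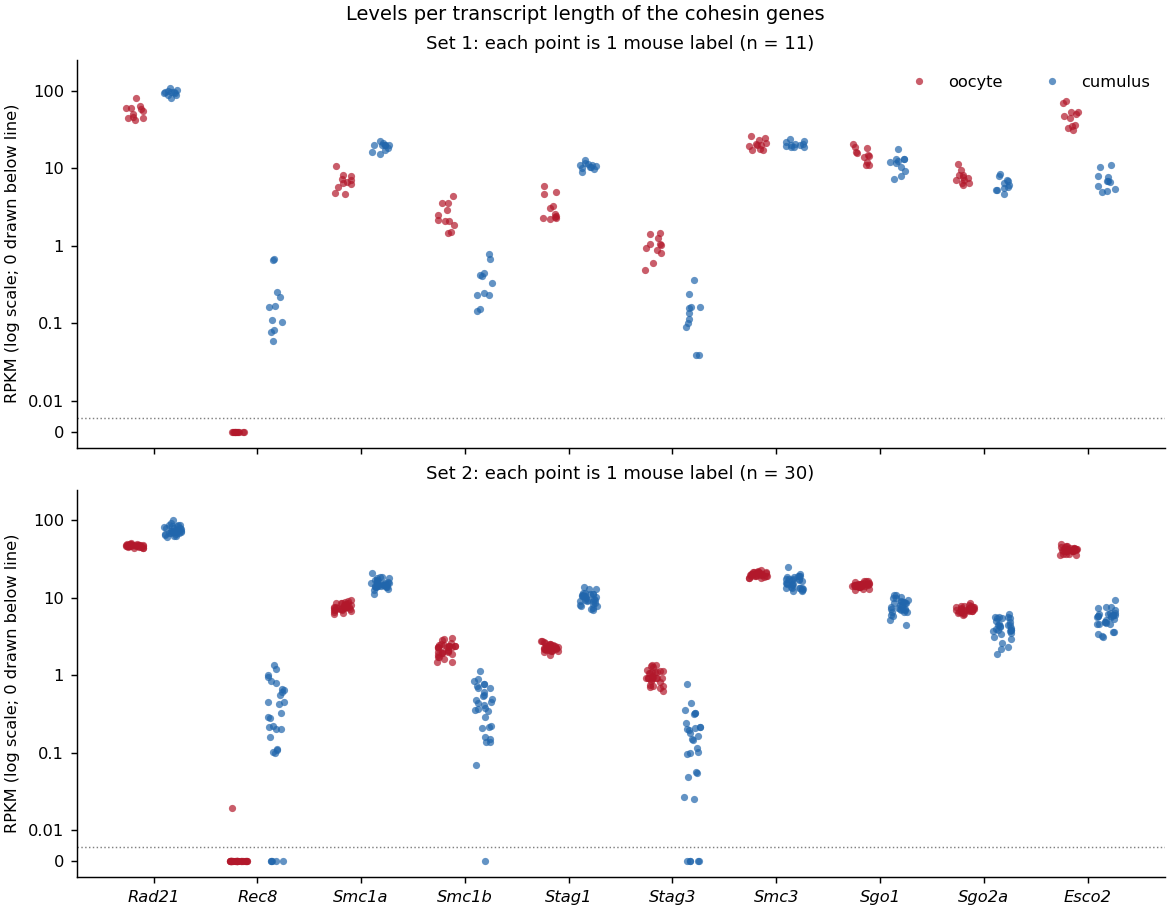
RPKM of the 10 genes on a log axis in oocytes and cumulus cells, each point 1 mouse label (n = 11 in the first set, n = 30 in the second), with values of 0 drawn below the dotted line. Rec8 lies at 0 in oocytes, apart from 1 mouse whose value comes from 0.5 count, and Smc1b, Stag3 and Esco2 are higher in oocytes than in cumulus cells.

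The start regions of 4 genes whose paralogs are compared below, and of Rec8, are shown as a description. They are taken from RefSeq on GRCm38.p6, in which 8 of the 10 members had a window, and each runs from 250 bases before to 50 bases after the start, 5′ to 3′ on the gene's strand. Capitals mark 2 of the short motifs searched on both strands, the core of E2F sites, TTCCCGC, and the E-box CACGTG, which USF and MYC family factors bind. The CHR (TTTGAA or TTCGAA), GC box (GGGCGG) and CCAAT motifs were searched as well and are not marked. They occurred in 19.2%, 35.7% and 37.4% of all windows.
Rec8, chr14:55617916-55618215, plus strand: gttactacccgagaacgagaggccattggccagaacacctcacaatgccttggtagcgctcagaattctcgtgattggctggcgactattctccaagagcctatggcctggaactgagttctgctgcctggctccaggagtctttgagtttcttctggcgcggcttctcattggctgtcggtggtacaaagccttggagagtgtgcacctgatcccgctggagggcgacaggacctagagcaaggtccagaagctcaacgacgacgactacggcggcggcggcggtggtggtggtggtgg
Smc1b, chr15:85131908-85132207, minus strand: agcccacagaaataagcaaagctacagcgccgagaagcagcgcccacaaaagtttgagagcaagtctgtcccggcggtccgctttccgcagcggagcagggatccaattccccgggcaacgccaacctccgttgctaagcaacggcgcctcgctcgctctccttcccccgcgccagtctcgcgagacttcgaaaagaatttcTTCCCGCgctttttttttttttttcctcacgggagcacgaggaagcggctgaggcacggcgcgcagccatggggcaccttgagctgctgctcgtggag
Smc1a, chrX:152016178-152016477, plus strand: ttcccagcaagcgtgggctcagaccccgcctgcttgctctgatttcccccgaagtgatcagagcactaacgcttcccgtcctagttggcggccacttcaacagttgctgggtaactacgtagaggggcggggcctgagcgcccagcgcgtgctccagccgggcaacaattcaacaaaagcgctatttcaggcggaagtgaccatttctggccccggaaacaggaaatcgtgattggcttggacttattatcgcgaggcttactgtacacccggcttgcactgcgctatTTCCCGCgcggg
Stag3, chr5:138280259-138280558, plus strand: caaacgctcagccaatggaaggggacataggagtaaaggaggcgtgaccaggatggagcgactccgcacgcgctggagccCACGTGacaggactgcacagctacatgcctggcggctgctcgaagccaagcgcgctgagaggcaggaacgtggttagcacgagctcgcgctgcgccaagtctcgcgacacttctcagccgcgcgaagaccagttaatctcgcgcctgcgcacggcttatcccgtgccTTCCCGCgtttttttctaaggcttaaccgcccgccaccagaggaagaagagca
Stag1, chr9:100643198-100643497, plus strand: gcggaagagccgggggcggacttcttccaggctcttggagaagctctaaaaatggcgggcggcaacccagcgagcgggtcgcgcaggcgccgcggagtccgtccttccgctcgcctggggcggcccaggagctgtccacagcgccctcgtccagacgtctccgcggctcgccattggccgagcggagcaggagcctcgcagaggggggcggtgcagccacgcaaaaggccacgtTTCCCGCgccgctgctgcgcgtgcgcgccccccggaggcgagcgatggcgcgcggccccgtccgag

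The E2F core was present once in 4 of these 5 windows, at 48 bases before the start of Smc1b, 3 before that of Stag3, 16 before that of Stag1 and 39 bases into Smc1a, and in 1 of the 2 windows of Sgo2a. It occurred in 4.60% of the 32851 windows of the whole table and was not in those of Rec8, Smc3 and Sgo1. The meiotic form and the somatic form of the SMC1 and STAG pairs thus both held it. The E-box, in 7.15% of all windows, was found in Stag3 and at 2 places in Sgo1. The start used for Stag1 lies within the gene span given above, and no window was available for Rad21 and Esco2. A match of letters is a description and not a bound site.

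The meiotic form was the minor one of the SMC1 and STAG pairs in both cell types, and its share was larger in oocytes, whereas for the kleisins the share of Rec8 was lower in oocytes, as given above. As a percentage of the RPKM of its pair, Smc1b made up 22.3% ± 3.58 (SD, n = 30 mice; 16.2% to 29.4%) in oocytes of the second set and 2.81% ± 1.63 in cumulus cells. Stag3 made up 29.7% ± 4.41 of Stag3 and Stag1 together in those oocytes and 1.69% ± 1.57 in cumulus cells. This is not its share of all STAG genes, since Stag2 stood outside the pair at 7.31 RPKM in those oocytes and 14.9 RPKM in cumulus cells. The oocyte and cumulus ranges did not overlap for either pair in either set. Across the groups of the second set the Smc1b share was 23.9% ± 4.39 at 2 months, 21.6% ± 1.83 at 4 months, 20.03% ± 3.39 at 9 months, 24.2% ± 3.55 at 14 months and 21.7% ± 4.26 without hyperovulation, with overlapping ranges.

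In the first set the Smc1b share of oocytes moved with the group. It was 17.1% and 17.3% in the young mice, 25.04% ± 1.99 in the middle mice (22.5% to 26.9%), 18.7% and 20.8% in the old labels and 42.1% ± 1.39 in the CR mice (40.6% to 43.2%), so that no CR mouse overlapped any other. On the log2 scale the ratio of Smc1b to Smc1a was 1.13 higher in CR than in middle mice (−0.46 against −1.58). The exact two-sided permutation test gave p = 0.0286, the smallest that 4 against 3 mice allow, and 0.343 after Benjamini-Hochberg adjustment over the 12 ratios tested. Between young and middle mice the ratio was 0.68 higher, with an exact permutation p of 0.0667 (the smallest possible with 2 against 4; adjusted p = 0.400). None of the 12 ratios passed. Those from young to middle and from young to old could not, since their smallest possible permutation p was 0.0667 and, with 2 against 2 labels, 0.333. From middle to CR, a smallest possible p of 0.0286 could pass the adjustment only if most of the 12 ratios were as low. Its failure to pass thus says little. The Stag3 share was 25.3% ± 4.80 in middle and 21.3% ± 3.20 in CR oocytes, with overlapping ranges. A mouse sum held under 10 counts of Stag3, so the ratio of sums was not tested there, and ratios averaged per mouse over the oocytes with a count of both genes differed by −0.43 (4 against 3 mice, two-sided exact permutation p = 0.286, adjusted p = 0.667 over 14 such ratios).

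**Figure D2:**
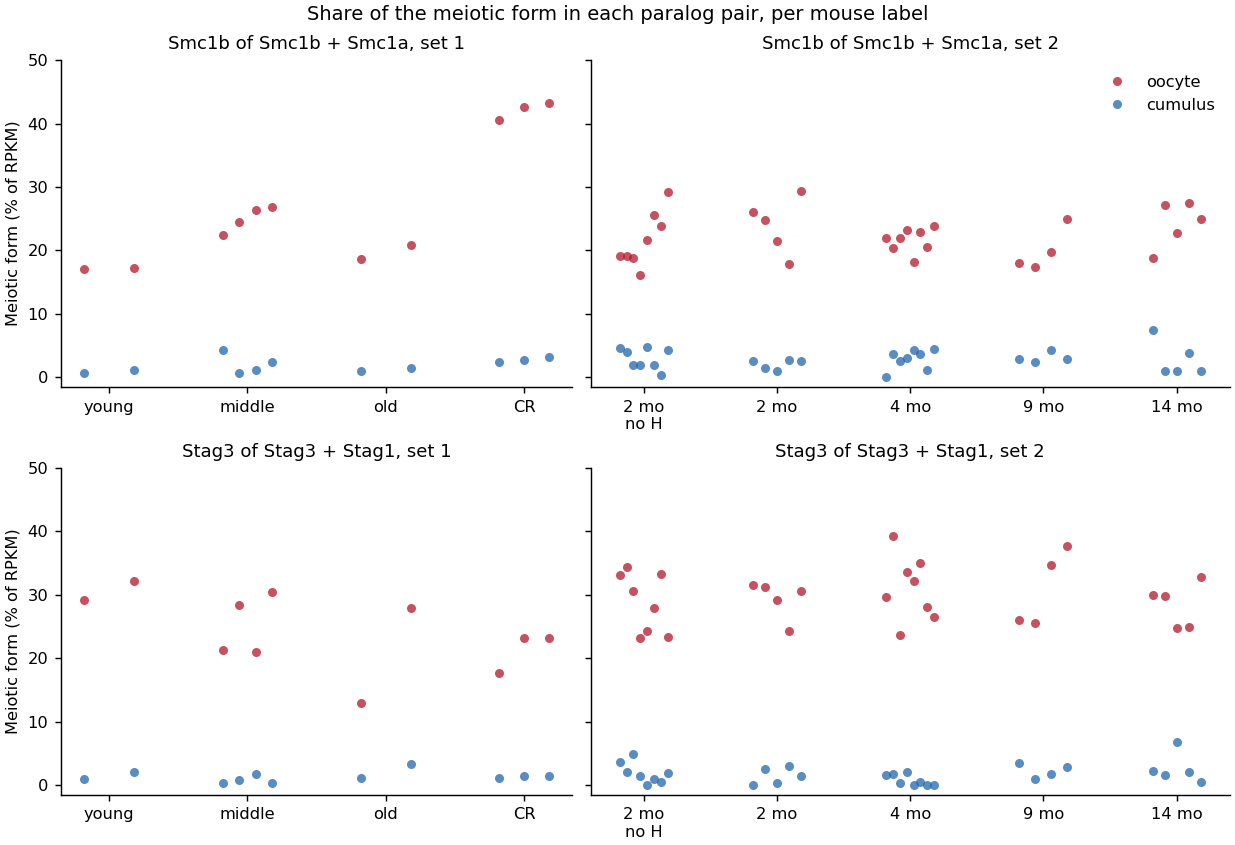
Percentage of the RPKM of a pair that belongs to the meiotic form (Smc1b of Smc1b and Smc1a, Stag3 of Stag3 and Stag1), per group, in oocytes and cumulus cells, each point 1 mouse label. The Smc1b share is 40.6% to 43.2% in CR oocytes and at most 26.9% in the other groups of the first set.

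Compared between cell types across all groups, 6 of the 10 genes were higher in oocytes in both sets and 3 (first set) or 4 (second set) were higher in cumulus cells. These counts stand against a background in which 75.4% of 34628 tested genes differed in the first set (39.1% higher and 36.3% lower in oocytes) and 78.1% in the second (37.8% and 40.4%), so most genes differ between these cells. All differences below are log2 of oocyte over cumulus from edgeR's quasi-likelihood test on mouse sums. The meiotic Smc1b was higher by 3.59 (SE 0.21) in the first set and 2.75 (SE 0.14) in the second, and Stag3 by 3.56 (SE 0.25) and 3.06 (SE 0.18). Esco2 was higher by 3.59 (SE 0.16) and 3.40 (SE 0.07). The shugoshins differed less, Sgo1 by 1.22 (SE 0.12) and 1.37 (SE 0.06) and Sgo2a by 1.12 (SE 0.12) and 1.25 (SE 0.07), and so did Smc3, by 0.81 (SE 0.10) and 0.82 (SE 0.06).

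The somatic forms lay on the other side. Stag1 was lower in oocytes, at −1.02 (SE 0.12) in the first set and −1.61 (SE 0.06) in the second, and Smc1a at −0.65 (SE 0.11) and −0.52 (SE 0.05). Rad21 was −0.02 (SE 0.10; FDR = 0.957) in the first set, which is not a call, and −0.19 (SE 0.04; FDR = 1.91e-05) in the second. The size of these values depends on how an oocyte is scaled against a pool of cumulus cells. With TMM factors set within each cell type, chosen after seeing the data, the median of all genes moved from 0.00 to −0.70 in the first set and from −0.21 to −0.57 in the second. The split of calls in the first set then went from 13551 higher and 12569 lower to 10841 and 15762. Under it Smc3 turned to −0.04 in the first set (FDR = 0.766) and Rad21 was lower in oocytes by 0.87 there, while the direction of the other 8 genes held in both sets. DESeq2 size factors moved the same medians to −0.39 and −0.68 and kept the direction of all 10 genes, with Rad21 lower by 0.40 and called in the first set. In cumulus pools, fewer cells and less RNA per cell cannot be told apart.

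Mean levels of Smc1b and Stag3 in cumulus cells, as a share of their oocyte levels, were above the median share of oocyte markers there. Oocyte markers stood in cumulus libraries at a median of 0.0994% (first set) and 0.0819% (second set) of their oocyte level, with a highest library of 2.07%. By mean RPKM over libraries, a measure unlike these medians, Smc1b stood at 14.6% and 20.97% of its oocyte level. On the same measure Stag3 stood at 15.6% and 16.1%, and Esco2 at 13.7% and 13.3%. The median cumulus library held 0.237 RPKM of Smc1b in the first set and 0 RPKM of Stag3 in the second. How far oocyte RNA contributed to these counts was not tested. A count was found in 56 of 71 and 85 of 128 cumulus libraries for Smc1b and in 34 of 71 and 46 of 128 for Stag3.

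Of 26 other cohesin and cohesion genes, 19 were higher and 5 lower in oocytes in the first set and 18 and 7 in the second. The widest differences belonged to Meikin, a kinetochore protein of the first meiotic division, Sgo2b and Rad21l. Meikin stood at 9.60 RPKM in oocytes of the second set and at 0 in cumulus cells, and Sgo2b at 5.08 against 0.0423 RPKM. Cdca5, the gene of sororin, was at 216 RPKM in oocytes against 12.7 RPKM in cumulus cells, and Haspin, the histone H3 kinase of the inner centromere, at 40.4 against 1.84 RPKM. Pds5a went the other way, at 1.76 RPKM in oocytes and 18.6 in cumulus cells. Cdca5, Haspin and Pds5a were chosen after their values were seen.

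Of the 7 comparisons between groups of oocytes, that of middle with CR mice was the only one in which members passed the edgeR test on mouse sums. Between middle and CR mice, both of 9 months, 4 of the 9 members tested passed an FDR of 5%, all of them higher in CR, against 7.1% of 29104 genes tested (4.31% higher and 2.8% lower). The paper had already reported Stag1, Sgo1, Rad21 and Esco2 as higher under CR in these same oocytes. Since the members were chosen with earlier results known, their share of calls is no independent test. The median over the 9 members was 0.48 on the log2 scale, and 0.02 over all genes. Rec8 had too few counts to be tested in oocytes.

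Stag1 differed most. Its CPM, scaled with TMM factors, was 36.7, 30.6, 25.1 and 28.8 in the 4 middle mice, of which the one numbered 3 gave a single oocyte, and 69.7, 59.0 and 60.6 in the 3 CR mice. All CR mice lay above all middle mice. The difference was 1.04 (SE 0.15; FDR = 0.00103), or 2.06-fold, and single middle oocytes ranged from 17.3 to 52.2 CPM (median 31.7) where CR oocytes ranged from 41.9 to 88.8 CPM (median 60.2).

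The meiotic Smc1b followed. It was at 7.59, 8.72, 11.1 and 8.55 CPM in the middle mice and 18.1, 14.7 and 15.9 CPM in the CR mice, without overlap. The difference was 0.88 (SE 0.17; FDR = 0.00781), or 1.84-fold, with single oocytes at 4.17 to 12.7 CPM against 10.9 to 23.6 CPM. Its somatic counterpart Smc1a stood at 37.4, 38.4, 44.6 and 33.2 CPM and 37.8, 28.3 and 29.9 CPM, with an uncalled difference of −0.26 (SE 0.15; FDR = 0.348). The SMC1 forms thus had opposite signs, and only the meiotic one was called.

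Sgo1 was measured at 56.5, 54.3, 56.7 and 42.2 CPM in middle and 79.6, 71.0 and 79.6 CPM in CR mice. Again no CR mouse overlapped a middle mouse, and the difference was 0.56 (SE 0.13; FDR = 0.0213), or 1.47-fold. Rad21 stood at 167, 198, 203 and 163 CPM in middle and 289, 220 and 256 CPM in CR mice, also without overlap, a difference of 0.48 (SE 0.13; FDR = 0.0376), or 1.40-fold. These last 2 calls were less secure. Sgo1 was past the threshold in 10 of 16 alternatives and Rad21 in 8, and leaving out 1 mouse kept each in 2 of 7 cases only. Sgo1 was lost without the middle mouse numbered 2 or 4 or any CR mouse (highest FDR over the alternatives 0.109), and Rad21 without the middle mouse numbered 1, 2 or 4 or the CR mouse numbered 1 or 3 (0.183). Stag1 and Smc1b stayed past it in all 16, with log2 differences of 0.73 to 1.15 and 0.62 to 1.06.

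The other members did not pass. Stag3 was at 4.83, 5.89, 3.25 and 6.09 CPM in middle and 7.26, 8.63 and 8.93 CPM in CR mice, without overlap, and its difference of 0.66 (SE 0.26) had an FDR of 0.158. Esco2 was at 224, 340, 338 and 238 CPM against 469, 364 and 349 CPM, again without overlap (0.47, SE 0.18; FDR = 0.138). Sgo2a was at 46.8, 57.4, 53.9 and 50.2 CPM against 81.2, 54.2 and 59.3 CPM, with an overlap (0.31, SE 0.15; FDR = 0.250). Smc3 was at 97.4, 119, 136 and 112 CPM against 130, 110 and 121 CPM, and its difference was 0.05 (SE 0.13; FDR = 0.869).

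**Figure D3:**
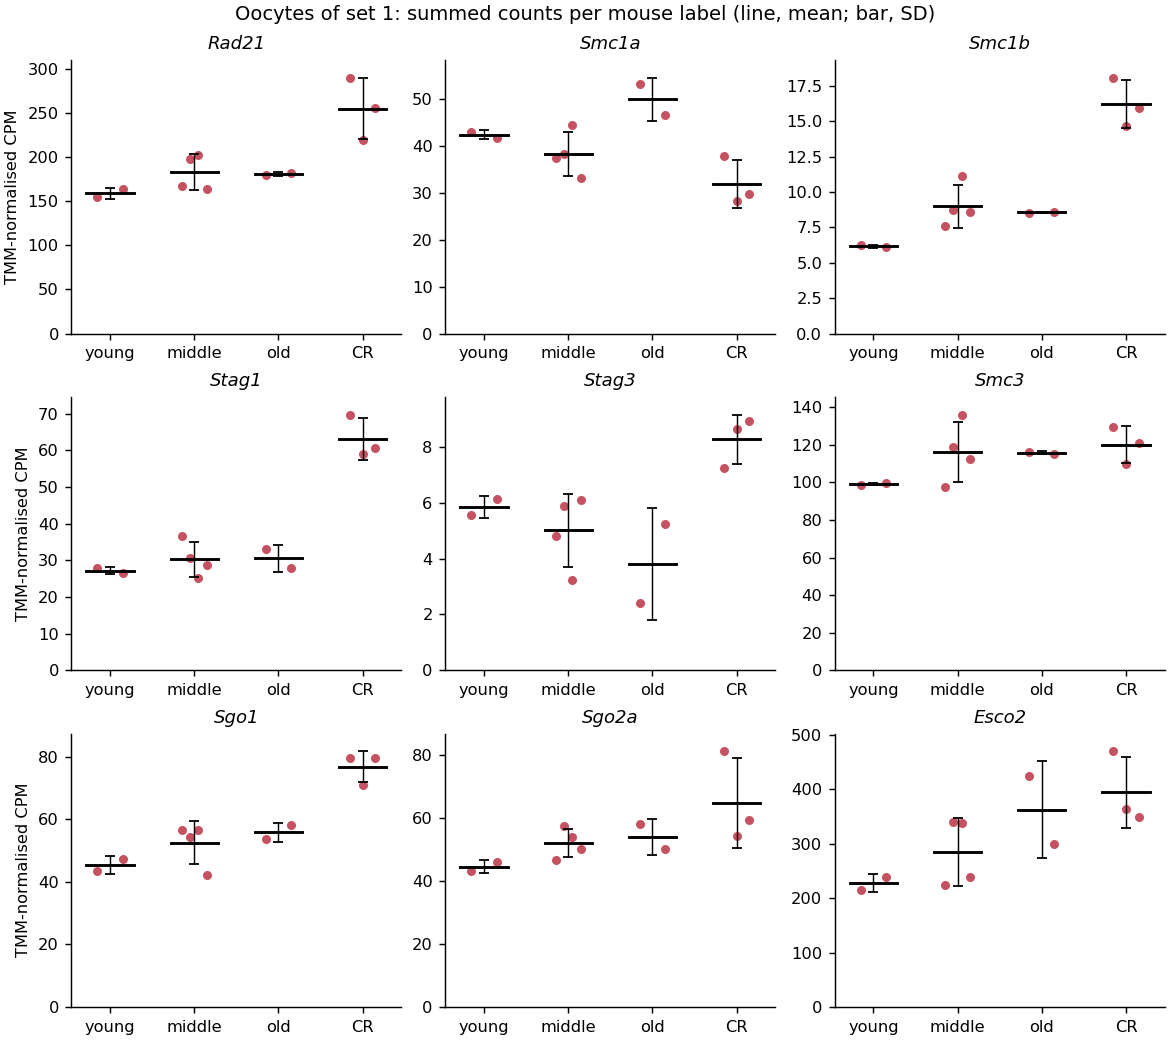
TMM-scaled CPM of 9 members in oocytes of the first set by group, each point 1 mouse label, with the mean as a line and the SD as a bar. Stag1 and Smc1b lie higher in all 3 CR mice (59.0 to 69.7 CPM and 14.7 to 18.1 CPM) than in any of the other 8 labels.

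CR libraries were deeper than middle ones and their mitochondrial share was 0.978% to 1.72% per mouse against 0.721% to 0.854%, and the part of depth and of this share in the result was not tested. Summed cumulus markers reached 216 to 495 CPM in CR oocytes and 92.7 to 602 CPM in middle oocytes. With the cumulus marker level as a covariate, the 4 calls held at 1.02 for Stag1, 0.90 for Smc1b, 0.58 for Sgo1 and 0.52 for Rad21. Without the oocytes over 5% of the cumulus marker level, left out after seeing the data, they held at 1.03, 0.76, 0.42 and 0.35. Gene lengths came from deposited counts and RPKM of the other groups, whose RPKM all matched those computed from counts within 1%. The deposited RPKM of CR libraries did so in 7.45% of values. They gave log2 differences of 0.99, 0.76, 0.48 and 0.41 for the same 4 genes, with no test.

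Among the 26 other cohesin and cohesion genes, 5 rose and 1 fell in CR oocytes, where 4.31% of all genes were higher and 2.8% lower. Those with the largest differences were Pds5a, a regulator of cohesin release (0.90, SE 0.23; FDR = 0.0307), Chtf18, a clamp loader subunit needed for cohesion (−0.86; FDR = 0.0233), and Esco1, the other cohesin acetyltransferase (0.56; FDR = 0.0220). Wapl, which opens the ring, Ppp2ca, a catalytic subunit of the phosphatase that shugoshins bind, and Stag2 were the other 3, at 0.47, 0.44 and 0.43, and are named after their values were seen. Of 15 cell cycle genes, Top2a rose by 0.56, and Aurkb and Rrm2 fell by 0.73 and 0.52, beside the same shares over all genes.

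In cumulus cells none of the 10 members differed between middle and CR mice by edgeR's quasi-likelihood test, where 0.0769% of 28594 genes did. At an unadjusted p under 0.05 there was 1 (Sgo1, 0.41), beside 9.94% of all genes, and DESeq2 called 0 members. Stag1 was at 123, 134, 97.1 and 112 CPM in middle and 123, 124 and 137 CPM in CR cumulus cells, with overlap and a difference of 0.12 (SE 0.12). Rad21 was at 332, 358, 296 and 338 CPM against 335, 294 and 351 CPM, and Smc1b at 3.25, 0.606, 0.859 and 1.75 CPM against 1.62, 1.70 and 2.79 CPM. Over all 10 members the differences in cumulus cells lay between −0.09 for Smc1a and 1.204 for Stag3, which was near the limit of detection. Whether oocytes responded otherwise than their cumulus cells was tested as an interaction. For it DESeq2 called Stag1 and Rad21, while edgeR called 0 of the 10 members and 0.445% of all 34628 genes. At an unadjusted edgeR p under 0.05 there were 2 members and 11.4% of all genes. Stag1 came nearest at 1.17 (SE 0.29; FDR = 0.0674), followed by Rad21 at 0.78 (SE 0.25; FDR = 0.173), where the median of all genes was 0.18. With the mouse as a replicate block, which pairs an oocyte sum with the cumulus sum of the same mouse, Stag1 passed at 1.198 (FDR = 0.0304).

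By cell type within each group, Stag1 was lower in oocytes than in cumulus cells of young (−1.45), middle (−1.25) and old mice (−1.29), while in CR mice the difference was −0.08 (FDR = 0.752). In the second set the same difference lay between −1.68 and −1.54 in all 5 groups. Of all genes, 54.5%, 59.3%, 54.3% and 67.6% differed between the cell types of young, middle, old and CR mice, and 68.1%, 76.3%, 64.5%, 64.4% and 73.1% at 2, 4, 9 and 14 months and without hyperovulation. With TMM factors over both cell types, Rad21 was higher in oocytes than in cumulus cells of CR mice by 0.58 (FDR = 0.00934). It stood at −0.32 to −0.15 with no call in the other groups of the first set. The CR values of both genes depend on this scaling. By RPKM, which uses no TMM factors, Rad21 stood at 68.2 in CR oocytes and 90.5 in CR cumulus cells. Stag1 stood at 5.16 and 10.9 RPKM there.

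Age gave no member that passed the test in oocytes of the first set. From young to middle and from young to old, edgeR and DESeq2 called 0 of 9 members, where edgeR called 0.0% of all genes. At an unadjusted edgeR p under 0.05 there was 1 member in each, beside 3.19% and 9.42% of all genes. Smc1b was at 6.24 and 6.10 CPM in young and 8.55 and 8.58 CPM in old labels, and middle mice were given above. Every middle and old label was above both young mice, with differences of 0.51 (SE 0.21; FDR = 1) and 0.48. Esco2 stood at 215 and 239 CPM in young and 425 and 300 CPM in old labels, without overlap (0.68, SE 0.24; FDR = 0.523). Stag3 stood at 5.57 and 6.14 CPM against 2.40 and 5.24 CPM (−0.67, SE 0.35; FDR = 0.55).

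Other members were closer together. Rad21 was at 155 and 163 CPM in young and 180 and 183 CPM in old labels, Smc3 at 98.7 and 99.7 against 116 and 115 CPM, Sgo1 at 43.4 and 47.4 against 53.8 and 58.0 CPM, and Sgo2a at 43.2 and 46.0 against 58.0 and 50.05 CPM. For Smc1a the values were 43.1 and 41.7 CPM against 53.2 and 46.7 CPM, and for Stag1 27.8 and 26.5 against 33.1 and 27.9 CPM. Old lay above young in all of these, but 2 against 2 labels allow no two-sided exact permutation p under 0.333. The share of all genes separated in this way was not counted. The 95% intervals of the 7 more abundant members reached changes of up to 1.76-fold from young to middle and 2.35-fold from young to old. With single oocytes as units, 6 of 9 members were called higher in old than young oocytes, against a background of 15.9% of genes. The same units called 6 of 9 from middle to CR (21.1% of genes), and in cumulus cells Sgo1 from young to old (1.54%). The old label that joins 2 mice held 11 of the 16 old oocytes, 6 of them over 5% of the cumulus marker level, and the part of this in the difference was not tested.

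In cumulus cells of the first set, 0 of 10 members passed in either age contrast by edgeR or DESeq2 (background 0.0035% from young to middle and 0.021% from young to old). At an unadjusted p under 0.05 there was Stag3 from young to middle (−1.57) and Sgo1 from young to old (0.53), beside 4.88% and 3.68% of all genes. Sgo1 was at 29.04 and 36.9 CPM in young and 49.7 and 46.3 CPM in old cumulus cells, without overlap. Esco2 was at 34.2 and 40.6 CPM against 45.3 and 53.6 CPM, and Stag1 at 137 and 136 CPM against 152 and 129 CPM. The 10 differences lay between −1.57 and 0.88 from young to middle and between −1.04 and 0.53 from young to old.

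The second set covered 4 ages with more mice and gave narrower limits. None of the 9 members tested was called in oocytes between 2 months and 4, 9 or 14 months by edgeR under any alternative or by DESeq2, beside backgrounds of 0.0%, 0.0533% and 0.192% of 28123 genes. At an unadjusted p under 0.05 there were 0, 0 and 2 members, beside 4.81%, 6.31% and 9.46% of all genes. The 2 were Esco2 and Smc3 at 14 months. Esco2 was at 260, 237, 266, 296 and 285 CPM at 2 months and 290, 266, 326, 308 and 312 CPM at 14 months, higher by 0.16 (SE 0.06; 95% interval 0.04 to 0.28; FDR = 0.301). Between them it was 246 to 296 CPM (median 279, n = 8) at 4 months and 278, 294, 305 and 289 CPM at 9 months.

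Smc3 was at 112, 105, 119, 112 and 113 CPM at 2 months and 109, 101, 98.1, 102 and 106 CPM at 14 months, a difference of −0.12 (SE 0.05; −0.23 to −0.01; FDR = 0.431). In both genes the groups overlapped. Rad21 was at 165, 157, 174, 176 and 170 CPM and 163, 154, 163, 174 and 176 CPM, and Sgo2a at 47.9, 45.0, 53.0, 52.7 and 47.6 CPM and 44.9, 41.3, 43.0, 47.6 and 55.8 CPM. The meiotic Smc1b was at 9.78, 9.32, 8.33, 7.85 and 11.8 CPM and 6.998, 9.27, 9.00, 11.5 and 8.58 CPM. Stag3 was at 5.21, 5.33, 5.38, 4.82 and 6.38 CPM and 5.22, 6.11, 5.18, 4.26 and 7.72 CPM, and Stag1 at 23.3, 24.2, 26.9, 30.95 and 29.8 CPM and 25.1, 29.7, 32.4, 26.4 and 32.5 CPM. None of these separated the ages. Smc1a was at 39.8, 40.3, 43.3, 51.5 and 40.4 CPM at 2 months and 43.0, 35.6, 43.7, 43.3 and 36.7 CPM at 14 months, and Sgo1 at 54.1, 51.8, 57.4, 57.8 and 62.5 CPM and 49.5, 62.2, 54.0, 60.7 and 60.1 CPM, with overlap as well. Over the 9 members the differences from 2 months lay between −0.07 and 0.09 at 4 months and between −0.31 (Smc1b) and 0.17 at 9 months. For the 7 more abundant members the 95% intervals kept any change within 1.18-fold at 4 months, 1.18-fold at 9 months and 1.22-fold at 14 months.

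Cumulus cells of the second set likewise gave 0 of 10 members by edgeR or DESeq2, and 0 at an unadjusted p under 0.05, at 4, 9 and 14 months (backgrounds 0.0%, 0.0949% and 0.078% of 29491 genes). Of all genes, 5.73%, 7.47% and 7.50% had such an unadjusted p. The meiotic genes were at the limit of detection there, with mouse values of 0 to 3.47 CPM for Rec8, 0 to 4.57 CPM for Smc1b and 0 to 4.31 CPM for Stag3. The 10 differences lay between −1.16 and 0.57 at 4 months, −0.44 and 0.55 at 9 months and −0.56 and 0.58 at 14 months, and for the 7 more abundant members the 95% intervals reached changes of up to 1.45-fold, 1.58-fold and 1.505-fold.

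**Figure D4:**
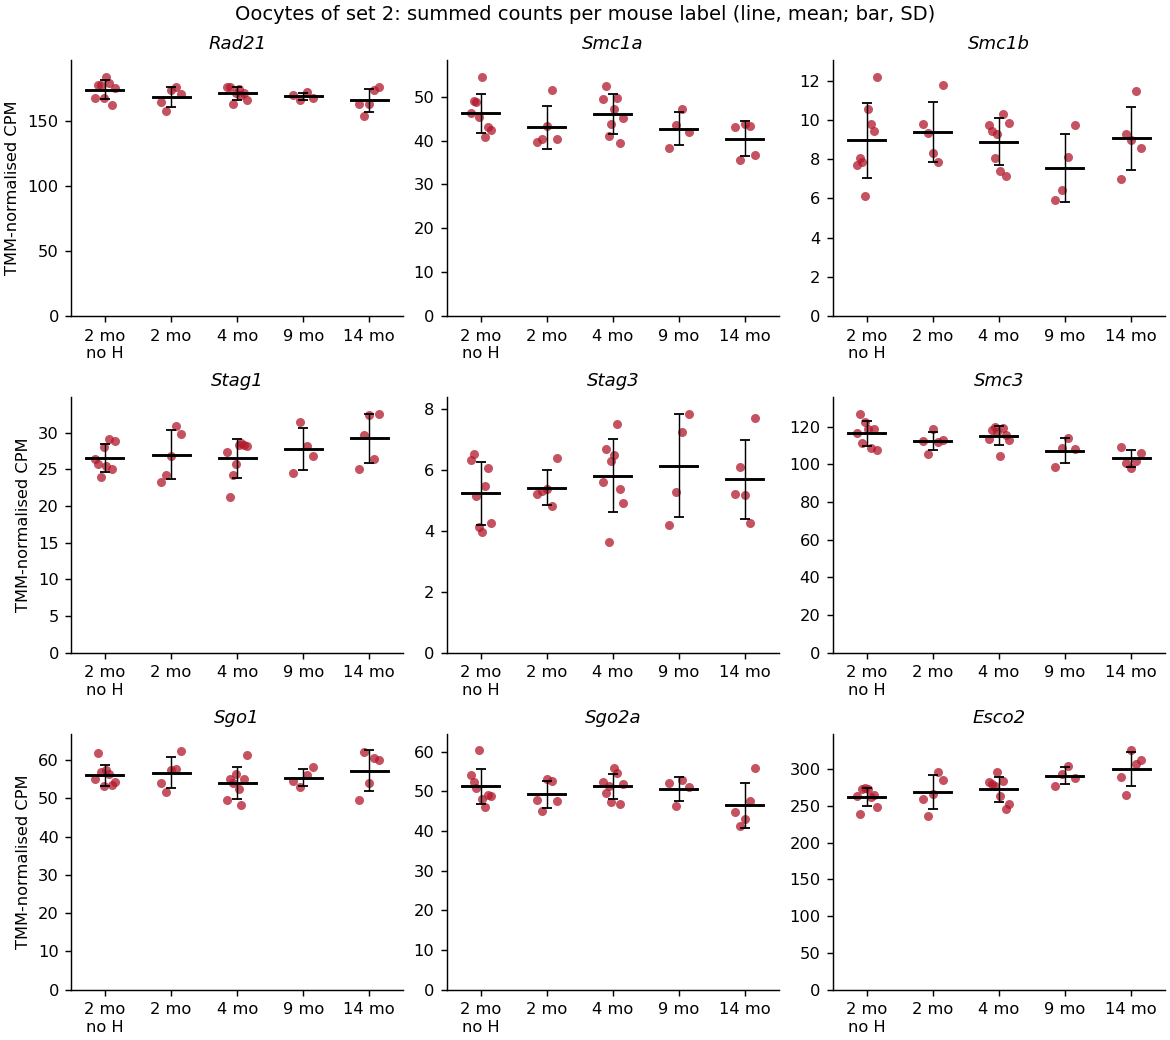
TMM-scaled CPM of 9 members in oocytes of the second set by group, each point 1 mouse, with the mean as a line and the SD as a bar. The values at 2 months overlap those of every other group, as for Esco2 at 237 to 296 CPM at 2 months and 266 to 326 CPM at 14 months.

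Hyperovulation was compared at 2 months. In oocytes 0 of 9 members were called by edgeR or DESeq2 and 0 had an unadjusted p under 0.05, where 0.0% of all genes were called and 4.42% had such a p. Without hyperovulation (n = 8) Rad21 was at 162 to 184 CPM (median 176), Smc3 at 108 to 127 CPM (median 118), Smc1a at 40.7 to 54.5 CPM (median 45.8), Smc1b at 6.12 to 12.2 CPM (median 8.75) and Esco2 at 239 to 275 CPM (median 264). Stag1 was at 24.004 to 29.2 CPM (median 26.05), Stag3 at 3.97 to 6.53 CPM (median 5.31), Sgo2a at 46.1 to 60.3 CPM (median 50.01) and Sgo1 at 53.2 to 61.8 CPM (median 55.8). All overlapped the values with hyperovulation given above, the 9 differences lay between −0.10 and 0.06, and the 95% intervals of the 7 more abundant members kept the change within 1.197-fold.

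In cumulus cells the same contrast called 1.67% of 29491 genes and 0 of the 10 members by edgeR or DESeq2. By edgeR 3 members had an unadjusted p under 0.05, as did 14.4% of all genes. Sgo2a was at 14.0 to 36.2 CPM (median 22.3, n = 8) without and 31.7, 24.1, 38.5, 25.97 and 40.4 CPM with hyperovulation, a difference of 0.51 (SE 0.19; FDR = 0.169). Esco2 was at 21.6 to 43.1 CPM (median 30.003) against 33.3, 30.6, 38.3, 40.3 and 63.8 CPM (0.46, SE 0.18; FDR = 0.205). Rad21 was at 222 to 314 CPM (median 238) against 265, 250, 284, 330 and 370 CPM (0.25, SE 0.11; FDR = 0.249). All 3 had a higher mean with hyperovulation, with overlapping mice. With the title prefix as a covariate Rad21 passed (0.27; FDR = 0.0392), and Sgo2a passed without 1 mouse, numbered 6 among those without hyperovulation (0.64; FDR = 0.0439).

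Of 15 cell cycle genes in the same cumulus cells, 1 was called, Ccna2, the S-phase and G2 cyclin (0.53; FDR = 0.0448), and all 15 had a positive difference with a median of 0.42. Their summed level was 1612 to 2880 CPM without and 2450 to 3314 CPM with hyperovulation, and that of cumulus markers 3773 to 9764 CPM and 7357 to 11805 CPM. The part of either in the values of Sgo2a, Esco2 and Rad21 was not tested. The difference between the responses of oocytes and cumulus cells called 0 of the 10 members by edgeR or DESeq2, where 0.318% of genes were called. By edgeR 3 members had an unadjusted p under 0.05, as did 7.73% of genes, with Sgo2a at −0.53 (SE 0.20; FDR = 0.387). With single libraries as units, 3 members were called in cumulus cells for hyperovulation (11.1% of genes), 3 in the difference in CR response (9.84%) and 2 in the difference in hyperovulation response (3.45%).

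**Figure D5:**
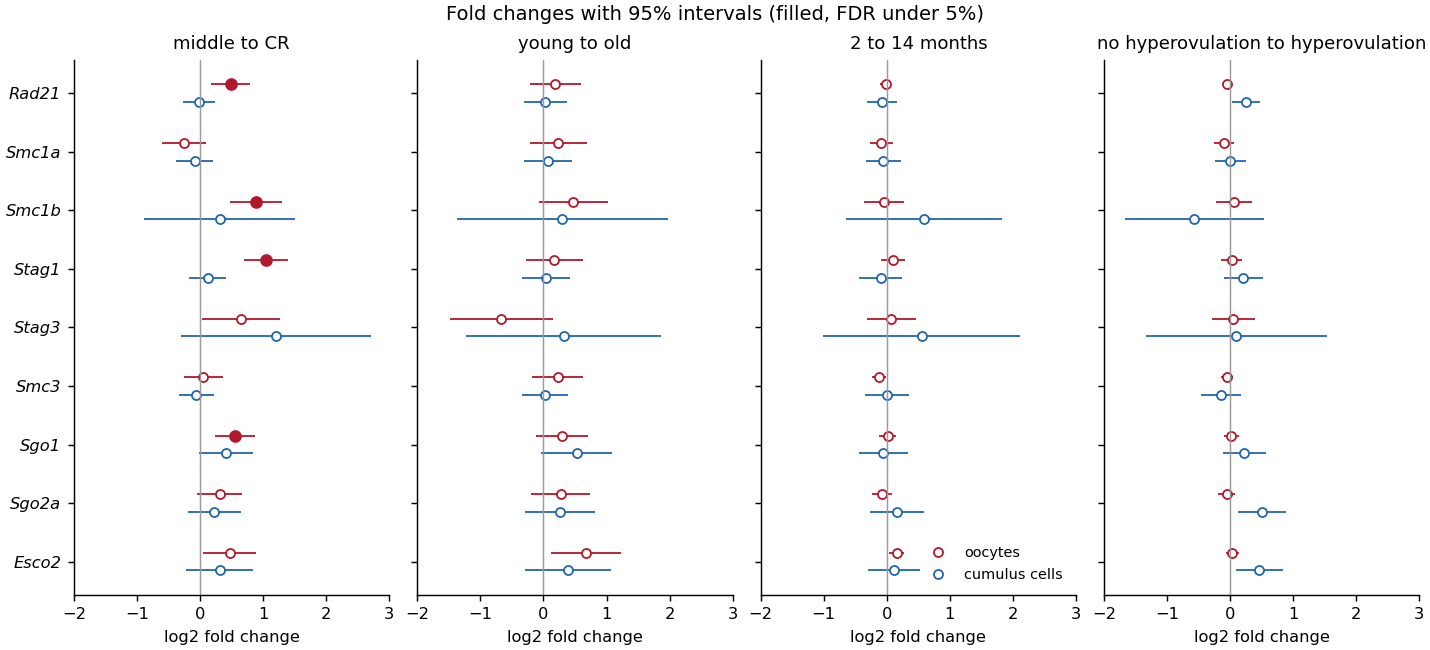
Log2 fold changes of 9 members with 95% intervals in oocytes and cumulus cells for middle to CR, young to old, 2 to 14 months and no hyperovulation to hyperovulation, filled where the FDR was under 5%. The filled points are Stag1, Smc1b, Sgo1 and Rad21 in oocytes from middle to CR, between 0.48 and 1.04.

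Single oocytes of 1 mouse varied by more than counting alone in the second set. The coefficient of variation within a mouse was 9.27% for Rad21, 10.1% for Smc3 and 11.8% for Esco2, where counting alone gives 5.30%, 6.52% and 4.16%. It was 32.6% for Smc1b and 39.2% for Stag3, where counting of independent reads alone gives 23.3% and 29.3%. In the first set Esco2 varied by 24.8% and Sgo2a by 31.05% within a mouse. Over the 36 pairs of members, the correlation of deviations within mice had a median of 0.04 (−0.21 to 0.33) in the second set and 0.31 (−0.31 to 0.62) in the first, as a description of libraries that share their mouse and scaling.

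The genes whose oocyte level followed a member most closely over the 30 mice of the second set were taken among 9444 genes by Spearman correlation of log2 CPM, as a description. Esco2 was closest to Sorbs2 (0.862), Naa30 (0.796) and Mob1b (0.767), and Smc1b to Tcp1 (0.794), Ncoa4 (0.737) and Ecpas (0.731). Smc3 was closest to Epc1 (0.727), Atf1 (0.711) and Gm43738 (0.701), Stag1 to Hsd17b7 (0.728), and Smc1a to Gng3 (0.701), Psip1 (0.700) and Cenpe (0.699), the centromere motor. Rad21 was closest to Gm12251 (0.697), Sgo2a to Gbe1 (0.688) and Sgo1 to Cntn4 (0.657). None of the genes with the highest 3 values for these 8 members was itself a member.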

How the data were processed

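Expression was measured in single oocytes and in cumulus pools of mice. The authors trimmed reads with Fastq-mcf, mapped them with HISAT2 2.0.5 to GRCm38 and counted them per GENCODE gene with featureCounts 1.5.1, and multi-mapped reads were counted. The deposited values are estimated counts, of which 36.8% (first set) and 35.1% (second set) of those above 0 are not whole, and they were rounded for tests that had been planned for whole counts. The deposited RPKM of the mice fed ad libitum were used with their counts to obtain gene lengths, and otherwise deposited RPKM served only as a check. Sgo2a exons overlap Kctd18 on the other strand.

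Counts were summed per mouse label, since several oocytes came from 1 mouse, and tested with edgeR 4.0.16 (quasi-likelihood F test, TMM, R 4.3.3) after removing genes detected in fewer than 5 libraries, at a Benjamini-Hochberg FDR of 5% over all genes. All groups of a cell type and set shared 1 fit. CPM were scaled with TMM factors, and RPKM used the lengths implied by the deposited counts and RPKM. These were below the GENCODE vM21 exon union for Rec8 (2748 against 2935 bases), Rad21 (3604 against 4232) and Smc1b (4038 against 4047), and equal to it for the other members. Ratios were compared by exact permutation tests over mouse labels. The alternatives were single libraries as units (the authors' design), DESeq2 1.42.0, other filters, only the 2 groups compared, a length and GC correction, all deposited libraries, the title prefix or the cumulus marker level as a covariate, a mouse block, and leaving out each mouse. Scripts were tested on simulated mouse sums of oocytes. For middle to CR, 61 of 100 genes changed 2-fold and 14 of 100 changed 1.5-fold were recovered, with 23 false calls among 29104 genes. For 2 to 14 months 96 and 73 of 100 were recovered, with 13 false calls among 28123 genes. In these simulations false calls were a larger part of all calls than the 5% aimed at, more so for middle to CR. Calls of members from middle to CR carry this limit. The members and gene lists were chosen with earlier results of these data known, all 10 members were to be named in every comparison, other cohesin genes are named by the 3 largest called differences, and like genes by the 3 highest Spearman correlations. Oocyte and cumulus libraries were paired by mouse, by design. The correlation of paired deviations was −0.07 to 0.07 (median 0.03, 11 pairs) in the first set and −0.11 to 0.27 (median 0.14, 30 pairs) in the second. P-values measure the spread between mouse labels. There are no molecular identifiers, so floors cover counting error only. Promoter windows are from RefSeq (GRCm38.p6).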

Additional observations from a re-analysis of the deposited data

Results flagged for a closer look

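In 114 groups of 4 to 10 mice, the highest or lowest mouse of 7 groups lay further from the nearest other mouse than Dixon's 95% critical value allows, and chance flags about 1 group in 20. In oocytes Sgo1 was at 42.2 CPM in the fourth middle mouse, below the other 3 (54.3 to 56.7 CPM), and Smc3 was at 104.0 CPM in 1 mouse of 4 months, below the others (113 to 120 CPM). In cumulus cells of the middle group Rec8 was at 1.72 CPM in the third mouse (others 0.232 to 0.454 CPM), a mouse with 1 complex, and Sgo2a was at 58.7 CPM in the second mouse (others 33.9 to 37.8 CPM). In cumulus cells of 14 months Rec8 was at 3.26 CPM in 1 mouse (others 0 to 0.305 CPM), the same mouse in which Sgo1 was at 16.8 CPM (others 33.8 to 37.2 CPM), and Stag3 was at 4.31 CPM in another (others 0.336 to 1.39 CPM). The values for Rec8 and Stag3 rest on few counts.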

How the results depend on the processing

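Across the alternatives, most results of single genes kept their direction and their side of the threshold (1222 values, and 1776 with a mouse left out). Of 10 or fewer members, single libraries as units called 6 from young to old and 6 from middle to CR in oocytes, 1 (Sgo1) from young to old in cumulus cells, 3 (Esco2, Rad21, Sgo2a) for hyperovulation in cumulus cells, 3 (Rad21, Smc1a, Stag1) for the difference in CR response and 2 (Rad21, Sgo2a) for the difference in hyperovulation response. Without a filter Esco2 was the 1 call from young to old in oocytes, where 390 genes were called higher and 415 lower of 35292. From middle to CR in oocytes the length and GC correction left 2 calls, where 974 genes were called higher and 964 lower of 29104, and leaving out a mouse left 2 to 4. For hyperovulation in cumulus cells the title prefix as a covariate gave 1 call (Rad21, 0.27, FDR = 0.0392), and leaving out a mouse 0 to 1. For the difference in CR response, 1 call was made with filterByExpr and with TMM within each cell type, 2 with DESeq2 and 0 to 1 without a mouse (Stag1 at 1.08, FDR = 0.022, without the third middle mouse). With the mouse as a replicate block the members called were 9 and 10 between cell types, 1 for the CR response and 0 for the hyperovulation response, and the block changed no other call. Signs turned for Smc3 between cell types in the first set (−0.0361 with TMM within each cell type) and for Smc1a in the CR response (−0.3912 with single libraries, FDR = 0.0429). The cause of these shifts was not tested.

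Over all genes, 2067 were called from middle to CR in oocytes, 3357 by DESeq2, 6149 with single libraries, 3372 without a filter and 889 with all deposited libraries. Rec8 and, in cumulus cells, Smc1b and Stag3 are limited by depth, and groups of 2 labels limit the first set.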
